A study of Homo sapiens with 14 samples.

Results

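The transcripts of 10 imprinted genes (DIRAS3, H19, IGF2, MEG3, PEG10, MEST, NNAT, PLAGL1, GRB10 and SGCE) were followed through bulk RNA-seq of human lung fibroblasts. The genes were listed by name, out of 62296 gene symbols in the annotation, and DIRAS3 was put on the list because it was selected on its own measured values, a strong fall of its reads in old cells of these same data. Its change between old and young cells is therefore a description, given without a test. All 10 genes were listed in each of the 3 kinds of table that were read.

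The samples were poly(A)-selected RNA of IMR90, human lung fibroblasts that the labels list as a cell line and that stop dividing after many passages, in 7 groups. The groups I79 young, I79 old, I10 young and I10 old came from 2 isolates of the line, I79 and I10, each taken while proliferating (young) and after passaging into replicative senescence (old), a lasting arrest of growth. The I79 ICM group was I79 cells given inflachromene (ICM), a compound known to bind HMGB1 and HMGB2, which are nuclear proteins of chromatin, and was present as 2 libraries. WT (genotype wild type) and HMGB2 KD (cells whose HMGB2 was depleted by siRNA) had 2 libraries each. Which isolate WT and HMGB2 KD came from, and what WT received in place of the siRNA, is not in the labels, and no group carries a transgene or deletion by its labels. Each young or old group came as 1 table of the authors, so its values have no SD. The sample titles mark 2 replicates in each WT, HMGB2 KD and ICM group, and nothing says that they came from separate cultures, so p-values measure only the spread between those libraries.

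An imprinted gene is read from the copy inherited from 1 parent. Which copy is read follows DNA methylation laid down in the egg or sperm. Imprinted genes lie in domains that share a control region, and many of them set fetal growth and are turned down after birth. IGF2 and H19 are the textbook pair of opposite parental origin within the same domain, as are DLK1 and MEG3. The tables hold no allele-specific reads, so the values are the sum over both copies.

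Of the 10 genes, 8 code for protein and H19 and MEG3 are long noncoding RNAs. In GRCh37, the build named by the labels, DIRAS3 lies at chr1:68511569-68517400 (minus strand), IGF2 at chr11:2150342-2179621 (minus), H19 at chr11:2016396-2025782 (minus) and MEG3 at chr14:101245747-101327368 (plus). PLAGL1 lies at chr6:144261437-144385736 (minus), NNAT at chr20:36149608-36152092 (plus) and GRB10 at chr7:50657760-50861159 (minus). Also on chromosome 7, MEST lies at chr7:130126012-130146306 (plus), PEG10 at chr7:94285637-94299007 (plus) and SGCE at chr7:94153516-94285884 (minus). All of these genes except H19 overlap at least 1 other annotated gene, and 5 of them overlap a protein-coding one. PEG10 and SGCE overlap each other head to head on opposite strands, NNAT overlaps BLCAP, and MEST overlaps COPG2. IGF2 overlaps 5 annotated genes, 4 of them on its own strand. Whether strand was used in counting the WT and HMGB2 KD libraries is not given in the sources used here, so reads from such overlaps could have been shared out or dropped.

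The promoters of 3 of these genes are shown because each belongs to the group of nearby starts with the largest share of the gene's reads. This held in every young and old table. Each is 300 bases of RefSeq sequence (GRCh38.p14), 250 before and 50 after the start, and each matched GRCh37 exactly once. Every CG, the dinucleotide at which imprinted promoters carry methylation, is in capitals. The DIRAS3 promoter lies at chr1:68516261-68516560 (minus strand), the MEG3 promoter at chr14:101292205-101292504 (plus) and the PLAGL1 promoter at chr6:144329347-144329646 (minus), all in GRCh37.
DIRAS3: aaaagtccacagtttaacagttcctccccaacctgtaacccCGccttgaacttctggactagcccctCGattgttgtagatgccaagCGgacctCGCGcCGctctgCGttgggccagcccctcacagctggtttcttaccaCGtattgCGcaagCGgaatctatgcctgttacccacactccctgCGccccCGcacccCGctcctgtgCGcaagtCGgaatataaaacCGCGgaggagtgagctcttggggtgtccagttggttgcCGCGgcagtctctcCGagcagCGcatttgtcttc
MEG3: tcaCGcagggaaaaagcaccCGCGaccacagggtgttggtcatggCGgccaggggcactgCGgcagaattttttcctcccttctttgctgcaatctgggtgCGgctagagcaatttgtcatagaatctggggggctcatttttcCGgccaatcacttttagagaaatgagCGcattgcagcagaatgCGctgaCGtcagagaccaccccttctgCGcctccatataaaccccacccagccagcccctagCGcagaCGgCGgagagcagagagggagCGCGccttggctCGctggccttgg
PLAGL1: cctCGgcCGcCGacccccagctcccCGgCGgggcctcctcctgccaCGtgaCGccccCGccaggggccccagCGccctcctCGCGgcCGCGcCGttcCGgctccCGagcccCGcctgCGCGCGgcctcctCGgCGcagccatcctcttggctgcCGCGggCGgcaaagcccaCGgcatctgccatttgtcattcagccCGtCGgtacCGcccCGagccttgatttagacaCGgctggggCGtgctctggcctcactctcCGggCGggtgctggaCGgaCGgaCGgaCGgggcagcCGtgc
The DIRAS3 promoter held 21 CG, and 39.5% of the 35116 RefSeq promoters held at least as many (the median was 14). MEG3 held 17, matched or passed by 46.0% of promoters, and PLAGL1 held 39, matched or passed by 8.71%. The hexamer TATAAA lay 30 bases before the start in DIRAS3 and 28 bases before it in MEG3, on the gene's strand in each. It was present on the gene's strand in 7.33% of all promoters and on either strand in 11.5%. Other RefSeq starts of MEG3 in the same start group had it 18 and 42 bases before them. The PLAGL1 window had no match on either strand. Of the 10 genes, 6 had promoters in the table, and IGF2, PEG10, NNAT and SGCE had none there.

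The WT and HMGB2 KD libraries held 33561766 to 41168932 counts, the tables of young and old cells held from 14991385 to 20632959 estimated counts, and 10971132 and 13290131 reads were listed for ICM. All 10 fibroblast markers were at or above 1 CPM (counts-per-million) in every library, and the summed CPM of the epithelial list was 0.268 to 1.46 and that of the leukocyte list 0.251 to 1.56. The endothelial list summed to 52.6 to 220.8 CPM, most of it from TEK, with the defining marker CDH5 at 0 in the young, old, WT and HMGB2 KD tables. TEK was called higher in old cells (1.24, SE 0.11, adjusted p = 0.0047), with 95.3 and 66.0 CPM in young and 213.5 and 165 in old. VWF was also higher there without being called (2.69, SE 0.42, adjusted p = 0.013). It had 7 estimated counts in each young table against 52 and 45 in the old ones. KDR was not tested, and its estimated counts were 3 (I79 young), 81 (I79 old), 0 (I10 young) and 1 (I10 old). The part of these endothelial-list transcripts in the old against young results was not tested. HMGB2 itself, the knockdown target, stood at 27.1 and 27.3 CPM without the siRNA and at 3.22 and 3.64 CPM with it. In old against young cells MKI67 and LMNB1 were lower (log2 fold changes -2.60 and -2.86) and CDKN1A was higher (2.48), all 3 past the thresholds below.

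In young cells the order of levels was led by the noncoding RNA MEG3. Per length, as TPM (transcripts-per-million), MEG3 stood at 345 in I79 young and 332 in I10 young, ahead of MEST at 86.6 and 89.6. PLAGL1 (34.2 and 32.9 TPM) and DIRAS3 (25.9 and 54.6) came next, in opposite order in the 2 isolates. SGCE, PEG10, GRB10 and NNAT lay close together between 13.5 and 26.2 TPM, and IGF2 (7.98 and 5.02) and H19 (0.336 and 0.206) were lowest. With 1 table per group the spread of these levels is unknown, so the order within that middle group is not established. In old cells IGF2 moved from the ninth place to the second in I79 (123 TPM) and the fourth in I10 (45.4 TPM), while DIRAS3 dropped to the ninth in both (0.674 and 0.239 TPM).

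The comparison of old with young cells asked which transcripts changed when fibroblasts reached replicative senescence. IGF2 and PLAGL1 rose and NNAT fell, DIRAS3 stood far lower by description, and the remaining genes were not called. A gene was called when its adjusted p was below 0.01 and its log2 fold change was beyond 0.6 in either direction, in edgeR's quasi-likelihood test with isolate as a covariate. Leaving DIRAS3 aside, 2 of the 8 other genes that passed the filter were called higher and 1 lower, and 5 were not called, where 9.57% of all 15115 tested genes were called (5.75% higher and 3.82% lower). The median log2 fold change with DIRAS3 included was 0.30, against -0.01 over all genes tested. Within an isolate, 41.2% (I79) and 37.3% (I10) of all tested genes moved by more than 0.6 on the log2 scale. The 2 isolates were the replicates, which left 1 residual degree of freedom.

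**Figure D1:**
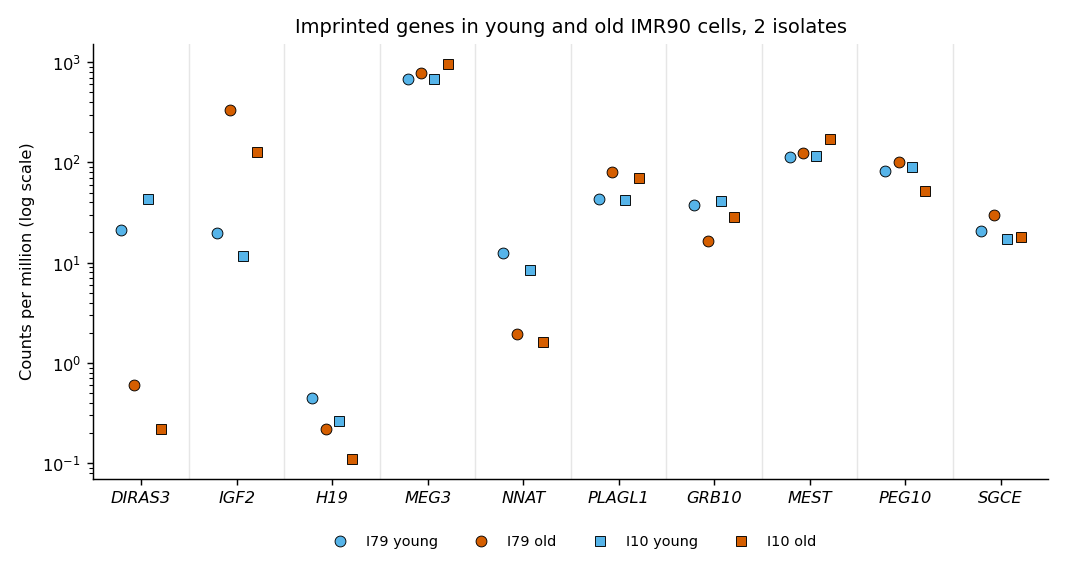
Counts-per-million (log axis) of the 10 imprinted genes in the 4 young and old tables; circles are I79, squares I10, blue young and orange old, with 1 value per table and no error. IGF2 stands at 11.7 and 19.9 in the young tables and at 126 and 336 in the old ones, and DIRAS3 at 21.3 and 43.3 against 0.597 and 0.221.

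DIRAS3 encodes a small RAS-related GTPase that restrains growth and is read from the paternal copy. It stood at 21.3 CPM (332 estimated counts) in I79 young and 43.3 CPM (831) in I10 young, and at 0.597 CPM (11) in I79 old and 0.221 CPM (4) in I10 old. The level in young cells was 35.6 times that in old cells in I79 (95% exact interval 19.6 to 72.03) and 196 times in I10 (76.3 to 721). These intervals, like all those below, cover counting error only. The young tables lay far above the old ones in both isolates, and the fitted change was -6.20 in log2 (SE 0.48), chosen for this size and so not tested. In bulk RNA, fewer cells with a transcript and less of it per cell cannot be told apart.

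IGF2 encodes a growth factor of the insulin family that acts through the IGF1 receptor. It stood at 19.9 CPM in I79 young and 336 CPM in I79 old, and at 11.7 CPM in I10 young and 126 CPM in I10 old. Old cells thus exceeded young cells 16.9 times in I79 (95% interval 15.0 to 18.95) and 10.8 times in I10 (9.38 to 12.4). The log2 fold change was 3.76 (SE 0.20, adjusted p = 0.0032). Its neighbour H19, the noncoding RNA read from the opposite parental copy, had 7 and 5 estimated counts in the young tables and 4 and 2 in the old ones, too few to be tested. The rise of IGF2 thus came in cells with almost no H19 in the table, young or old.

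PLAGL1, a zinc finger transcription factor that slows the cell cycle, rose in both isolates. It stood at 42.8 CPM in I79 young against 79.9 in I79 old, and at 42.5 CPM in I10 young against 69.9 in I10 old. The log2 fold change was 0.81 (SE 0.11, adjusted p = 0.0093). The call was lost at the margin with plain library totals (0.60, adjusted p = 0.0099) and with limma on log2(TPM + 1) (0.65, adjusted p = 0.045).

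NNAT encodes neuronatin, a small membrane protein best known from brain and from endocrine cells. It stood at 12.5 CPM in I79 young and 1.95 in I79 old, and at 8.45 CPM in I10 young and 1.60 in I10 old. Both old tables lay below both young ones, a log2 change of -2.54 (SE 0.23, adjusted p = 0.0050). The old values rest on 36 and 29 estimated counts.

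GRB10, an adaptor that binds and dampens insulin and IGF1 receptors, was lower in both old tables without being called. It stood at 37.6 CPM in I79 young against 16.5 in I79 old, and at 41.4 CPM in I10 young against 28.4 in I10 old. The log2 fold change was -0.86 (SE 0.19, adjusted p = 0.030). With plain library totals, which shift the median of all genes by -0.21 on the log2 scale, it was called (-1.07, adjusted p = 0.0034), and also when genes of low count were kept in the fit (-0.87, adjusted p = 4.32e-06).

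The other 4 tested genes gave log2 fold changes between -0.24 and 0.35, and none was called. MEG3, a noncoding RNA read from the maternal copy, stood at 685 and 672 CPM in the young tables and 778 and 963 CPM in the old ones (log2 fold change 0.35, SE 0.15, adjusted p = 0.14). MEST, an enzyme of the alpha/beta hydrolase fold, stood at 112 and 115 CPM in young and 123 and 171 CPM in old cells (0.35, SE 0.14, adjusted p = 0.12). On CPM both genes were higher in each old table than in each young one, while on TPM MEST was slightly lower in I79 old than in I79 young (84.1 against 86.6).
SGCE, the epsilon subunit of the sarcoglycan complex of the cell membrane, stood at 20.9 and 30.0 CPM in young and old I79 and at 17.2 and 18.1 CPM in young and old I10 (0.30, SE 0.17, adjusted p = 0.23). PEG10, a protein derived from a retrotransposon, differed in sign between the isolates. In I79 it went from 82.7 to 101.8 CPM and in I10 from 89.1 to 51.9 CPM, an old to young ratio of 1.23 (95% interval 1.15 to 1.32) in I79 and 0.582 (0.537 to 0.631) in I10. Opposite signs in the 2 isolates occurred in 19.1% of all genes tested. PEG10 and SGCE start from opposite strands of the same region. On CPM SGCE did not share the lower I10 old value of PEG10, but on TPM both were lower in I10 old (15.3 against 26.2 for SGCE and 11.8 against 23.7 for PEG10), so the direction of SGCE in I10 depends on the scale.

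The transcript estimates of the young and old tables allowed each gene's reads to be split by annotated start, with starts less than 500 bases apart joined and numbered from the upstream end. These are shares of an estimate, with no test. DIRAS3 had 2 starts, and the one whose promoter is printed above, 1004 bases downstream of the other, held 93.2% of its reads in I79 young and 96.5% in I10 young. The few reads left in old cells were all assigned to it. Most of the reads that DIRAS3 lost were thus at that start. The upstream one fell too, from 22.4 and 29.2 estimated counts in young cells to 0 in both old tables.

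IGF2 has 4 start groups, and its rise in old cells came at the 2 most downstream. The fourth held 291 estimated counts in I79 young and 5365 in I79 old, and in I10 it held 214 and 1926. The third, 19002 bases from the upstream start, held 20.3 and 819.8 in I79, and 11.2 and 359 in I10. Its share went from 6.54% to 13.3% in I79 and from 4.997% to 15.7% in I10, and no reads were assigned to the 2 upstream groups in any table. The reads of IGF2 therefore grew at both starts, more steeply at the third.

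MEG3 kept much the same division in all 4 tables, with 59.0% to 61.7% of its reads at the start group whose promoter is printed above and 34.3% to 38.0% at start group 8. PLAGL1 was spread over 5 start groups, of which the second held 31.2% to 35.1%. Its starts reach beyond the printed promoter on both sides. In MEST and GRB10 the shares moved between tables without regard to age. The third start group of MEST held 58.5% of reads in I10 young and 0% in I10 old, but 16.9% and 22.5% in I79. Start group 9 of GRB10 held 62.1% in I79 young and 0% in the other 3 tables. Estimates of transcripts that share most of their exons can trade reads between them, and how far they did so was not tested.

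**Figure D2:**
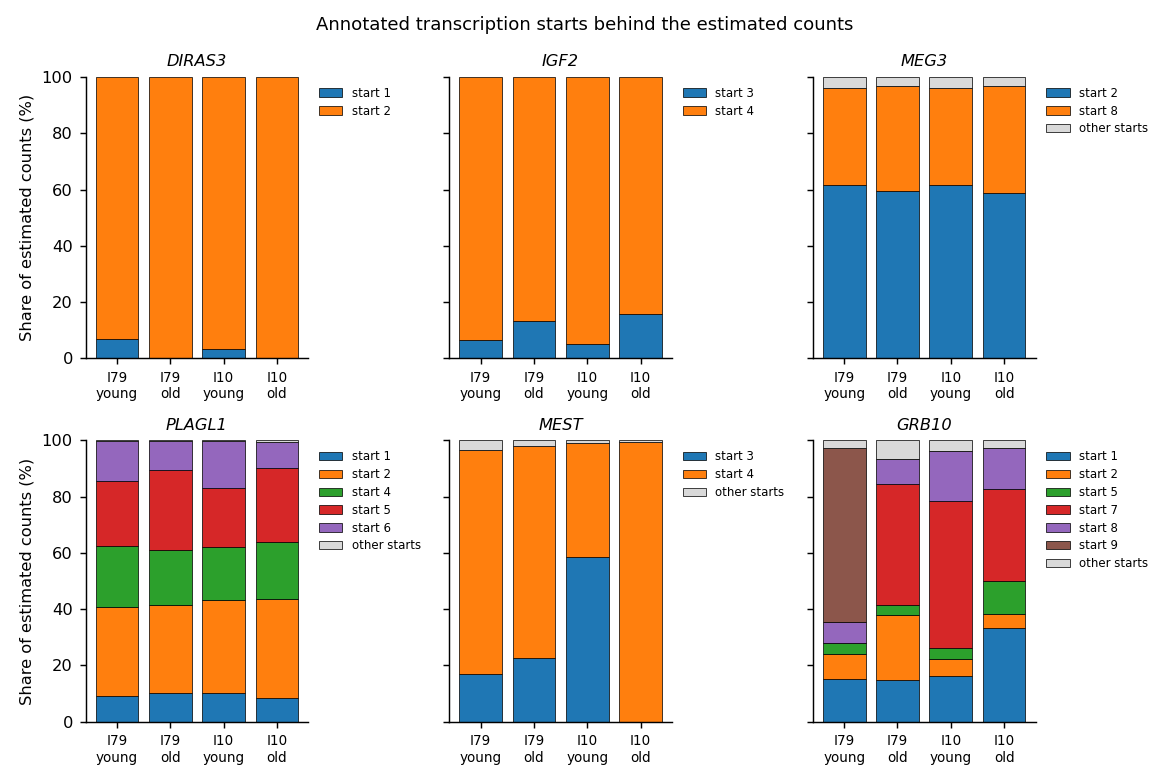
Share of a gene's estimated counts (%) assigned to each annotated start group in the 4 young and old tables, for 6 genes; start groups that never reach 5% are joined as other starts, and bars are stacked to 100%. The share of the third start of IGF2 is higher in the old table of each isolate (13.3% and 15.7% against 6.54% and 4.997%), while MEG3 and PLAGL1 look alike across tables.

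The knockdown libraries asked which transcripts depend on HMGB2. DIRAS3 and PEG10 fell after the knockdown and GRB10 rose. Of the 9 genes tested, 1 was called higher and 2 lower and 6 were not called, where 5.2% of all 15338 tested genes were called (2.86% higher and 2.34% lower). The median log2 fold change of the 9 genes was 0.17, against 0.00 over all genes. The 2 groups of libraries did not overlap in 7 of the 9 genes, as in 53.8% of all tested genes. The rule that chose the genes named no value of these libraries, but the genes were chosen with earlier results of these data known.

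**Figure D3:**
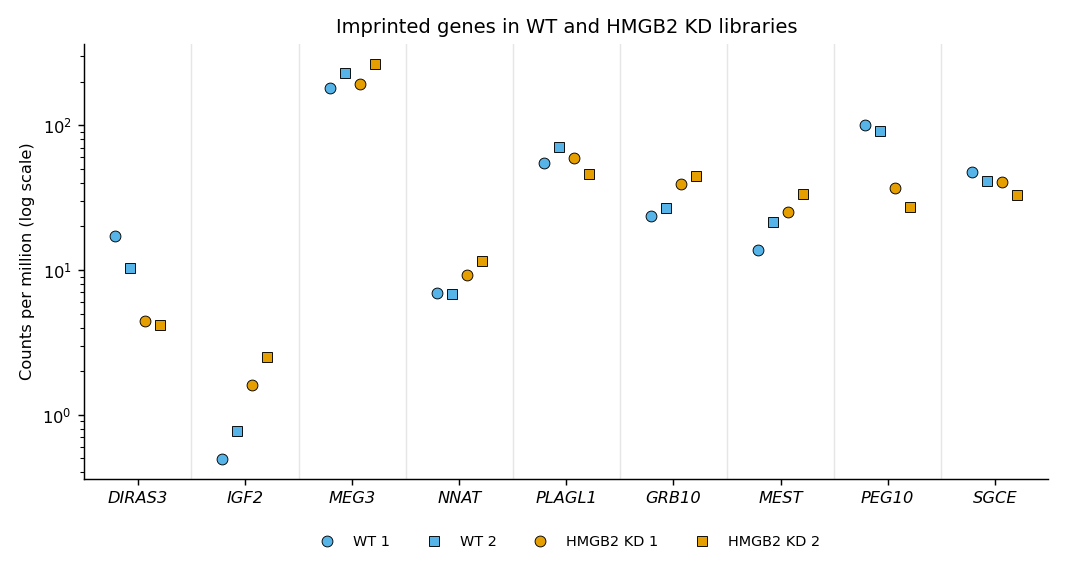
Counts-per-million (log axis) of 9 imprinted genes in each WT (blue) and HMGB2 KD (yellow) library; circles are replicate 1 and squares replicate 2. H19 had no count in any library and is not drawn. DIRAS3 and PEG10 lie lower in both HMGB2 KD libraries than in both WT libraries, and GRB10 and IGF2 lie higher.

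PEG10 stood at 100.2 and 91.6 CPM in the WT libraries, and the knockdown libraries had 36.9 and 27.1 CPM, means of 95.9 ± 6.07 and 32.0 ± 6.91 CPM (SD, n = 2). Its log2 change was -1.58 (SE 0.15, adjusted p = 4.5e-05). DIRAS3 had 17.1 and 10.3 CPM in WT, and the knockdown left 4.43 and 4.16 CPM, means of 13.7 ± 4.81 and 4.29 ± 0.185 CPM (SD, n = 2), a change of -1.67 in log2 (SE 0.23, adjusted p = 0.00046). The knockdown libraries lay below both WT libraries in each gene, although the WT libraries of DIRAS3 differed widely between themselves. Without each library in turn the log2 fold change of DIRAS3 stayed between -2.00 and -1.27. SGCE, which shares its start region with PEG10, gave 47.9 and 41.2 CPM without and 40.9 and 33.1 CPM with the knockdown and was not called (-0.27, SE 0.15, adjusted p = 0.29).

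GRB10 had 23.7 and 27.0 CPM in WT and rose to 39.3 and 44.9 CPM with the knockdown, means of 25.4 ± 2.32 and 42.1 ± 3.95 CPM (SD, n = 2), or 0.73 on the log2 scale (SE 0.14, adjusted p = 0.0038). This call rested on single libraries, since it was lost without HMGB2 KD replicate 2 (0.64, adjusted p = 0.024) and without WT replicate 1 (0.64, adjusted p = 0.066).

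IGF2 and MEST were higher in both knockdown libraries but missed the threshold. IGF2 had 17 and 29 counts in WT (0.497 and 0.777 CPM) and 59 and 100 counts in HMGB2 KD (1.61 and 2.51 CPM), a log2 difference of 1.69 (SE 0.44, adjusted p = 0.024). MEST gave 13.8 and 21.4 CPM without and 25.3 and 33.3 CPM with the knockdown (0.73, SE 0.20, adjusted p = 0.026). Both genes were called with 1 RUVs factor, with no filter on low counts and with the replicate number as a block, so their status depended on the fit.

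NNAT gave 6.89 and 6.88 CPM without and 9.26 and 11.5 CPM with the knockdown (0.59, SE 0.19, adjusted p = 0.059). MEG3 (WT 179.5 and 228 CPM, knockdown 194 and 266 CPM) and PLAGL1 (WT 54.7 and 70.2 CPM, knockdown 59.0 and 45.8 CPM) overlapped between the groups, with log2 fold changes of 0.17 (SE 0.17) and -0.26 (SE 0.16). H19 had 0 counts in all 4 libraries, which allows up to 0.0894 CPM in the shallowest of them (3 counts). None of the 3 tested genes was called.

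The old and knockdown comparisons share no samples, and some genes moved alike in them while others did not. DIRAS3 was lower in both. Estimates were positive in both for IGF2 (3.76 in old cells and 1.69 after the knockdown), MEST (0.35 and 0.73) and MEG3 (0.35 and 0.17). PEG10 was negative in both (-0.24 and -1.58), although its sign in old cells differed between the isolates. IGF2 was called in old cells only, PEG10 after the knockdown only, and MEST and MEG3 in neither. NNAT was called lower in old cells and stood 0.59 higher on the log2 scale after the knockdown, while GRB10 was called higher after the knockdown and stood 0.86 lower in old cells. PLAGL1 was called higher in old cells and its estimate after the knockdown was -0.26. SGCE was called in neither, with estimates of 0.30 in old cells and -0.27 after the knockdown. Over all 12833 genes tested in both, 17 (0.132%) were called lower in both, and nothing is read from the place of DIRAS3 among them, since the old cells chose it. HMGB2 itself was lower in old cells (log2 fold change -1.64) and lower still after the knockdown (-2.99). The differences between these 2 responses were not tested, because the tables were counted in different ways.

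**Figure D4:**
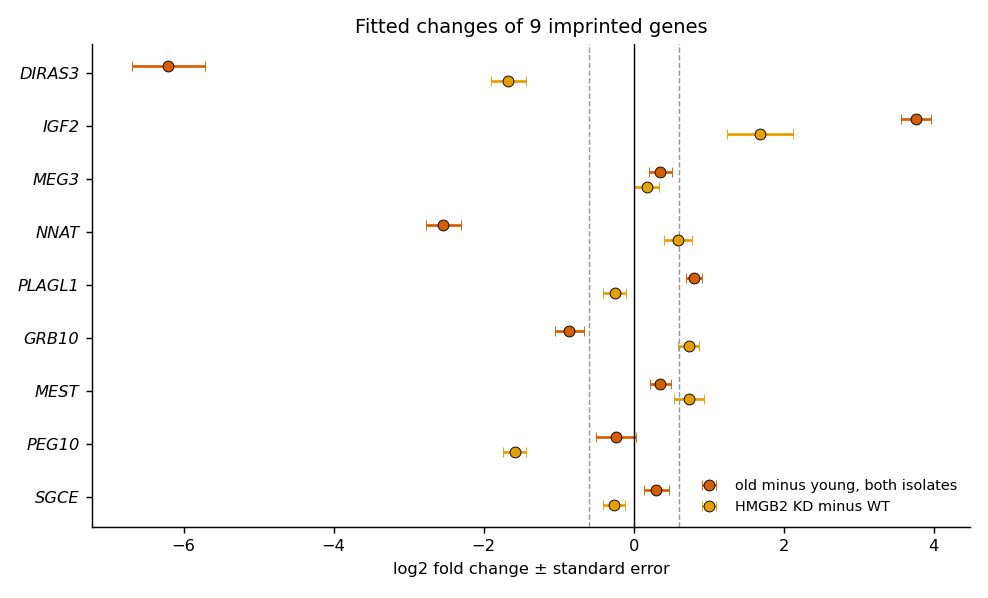
Fitted log2 fold change (horizontal axis) with its standard error for 9 imprinted genes, old minus young over both isolates (orange) and HMGB2 KD minus WT (yellow); dashed lines mark 0.6 in each direction. DIRAS3 lies left of -0.6 in both comparisons, IGF2 right of 0.6 in both (called in old cells only), and NNAT and GRB10 lie on opposite sides of 0.

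ICM-treated I79 cells were set beside I79 young cells and the WT libraries on CPM over the 25299 genes listed in all tables, with a prior count of 2. The ICM tables were counted by transcript region and the young table by transcript, so a difference of counting enters each ratio along with the treatment. No test was run, and 60.6% of all 14863 genes with enough reads were more than 0.6 apart on the log2 scale. WT over I79 young, with no ICM, put 44.5% of genes that far apart. Of 9 imprinted genes, 5 were lower in ICM than in I79 young by more than 0.6 (30.2% of all genes), 1 was higher (30.4%) and 3 were within. In WT over I79 young the counts were 6 lower, 1 higher and 2 within, so the counts alone do not set ICM apart.

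Only DIRAS3, NNAT, PEG10 and MEG3 of these 9 were lower in ICM than in both I79 young and WT by more than 0.6, as were 19.5% of all genes, and none was higher than both, as were 20.4%. DIRAS3 stood at 0.767 and 0.743 CPM in the ICM libraries (10 and 8 reads), at 23.9 CPM in I79 young, at 18.4 and 11.0 CPM in WT and at 0.598 CPM in I79 old. It was thus close to its level in old cells of the same isolate, with a log2 ratio to I79 young of -4.83 and to WT of -4.09. NNAT stood at 1.30 and 1.95 CPM in ICM (17 and 21 reads), at 14.04 in I79 young, at 7.39 and 7.37 in WT and at 1.96 in I79 old. Like DIRAS3 it lay within 0.3 on the log2 scale of its level in I79 old. So did MEST (0.29), PLAGL1 (0.20) and SGCE (-0.24), and the share of all genes that close was not worked out.
PEG10 stood at 22.6 and 23.3 CPM in ICM, at 93.0 in I79 young and at 107 and 98.1 in WT. Its level in I79 old, 102 CPM, was close to the untreated ones, so that low PEG10 was seen in ICM and in HMGB2 KD and not in old I79 cells. MEG3 stood at 96.9 and 95.6 CPM in ICM against 770.4 in I79 young and 193 and 245 in WT, and these controls themselves lay 1.83 apart on the log2 scale.

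IGF2, which of the 10 listed genes had the steepest rise in old cells, was low in ICM beside old cells. The overlapping readthrough gene INS-IGF2 was listed with 79 and 72 reads in ICM and 0 in the young and old tables. Its part in the IGF2 values was not tested. IGF2 stood at 6.52 and 7.34 CPM in ICM, 22.4 in I79 young and 336 in I79 old, but at 0.532 and 0.832 CPM in WT. The direction thus depended on the control (log2 ratio -1.68 to I79 young and 3.22 to WT). MEST likewise stood at 154 and 147 CPM in ICM, near I79 young (126), and far above WT (14.8 and 23.0). For these 2 genes the untreated tables differed by more than ICM differed from I79 young. PLAGL1 stood at 93.9 and 90.1 CPM in ICM and 48.2 in I79 young (0.93), with WT at 58.7 and 75.2. GRB10 (31.4 and 37.4 CPM in ICM, 42.3 in I79 young) and SGCE (26.6 and 24.4 in ICM, 23.5 in I79 young) were within 0.6 of I79 young. H19 had 1.5 reads and 0 reads.

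**Figure D5:**
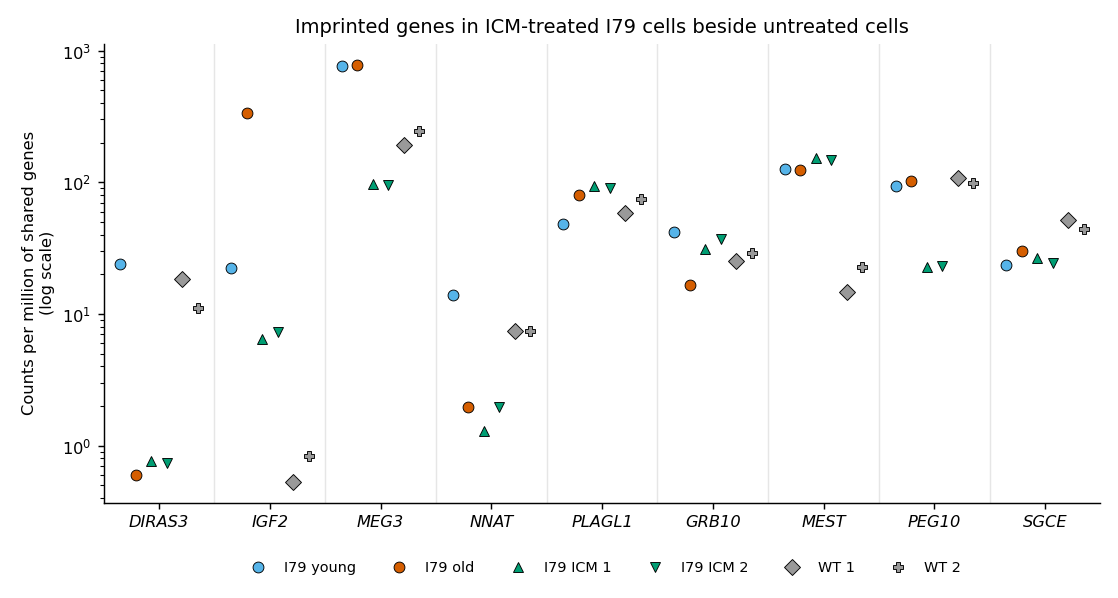
Counts-per-million over shared genes (log axis) of 9 imprinted genes in I79 young, I79 old, the 2 I79 ICM libraries and the 2 WT libraries, each a single value. The ICM triangles lie beside the I79 old circle for DIRAS3, NNAT, MEST, PLAGL1 and SGCE, and well below it for IGF2 (6.52 and 7.34 against 336), PEG10 and MEG3.

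The ICM tables also split the reads of a gene by transcript region. Over all genes 61.1% and 61.9% of reads lay in coding sequence and 25.3% and 24.2% in 3′ untranslated regions. IGF2 had 84.7% and 81.6% of its reads in the 3′ untranslated region, and PEG10 60.3% and 59.8%. SGCE was at the other end, with 92.6% and 94.2% in coding sequence and 0.817% and 0.889% in the 3′ untranslated region. In coding sequence MEST (50.9% and 57.4%) and PLAGL1 (56.3% and 57.1%) lay somewhat below the average. PLAGL1 had 26.7% and 30.2% of its reads in the 5′ untranslated region, against 10.4% and 10.6% over all genes. In the 3′ untranslated region PLAGL1 had 17.0% and 12.7% and MEST 37.4% and 36.0%. The readthrough gene INS-IGF2 was listed with 79 and 72 reads beside the 85 and 79 of IGF2, so the same reads may have been entered for both or shared out between them. With 85 and 79 reads the shares of IGF2 are coarse, and DIRAS3 and NNAT had too few reads for a split.

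Of 53 further imprinted genes, 29 were tested in old against young cells, and 2 (6.90%, beside 9.57% of all genes) were called, both higher (CPA4 and TFPI2), with a median log2 fold change of 0.21. After the knockdown 25 were tested and 3 (12%, beside 5.2% of all genes) were called, 2 higher (CPA4 and ATP10A) and 1 lower (TFPI2), with a median of 0.11. CPA4, a carboxypeptidase gene 161992 bases from MEST, rose from 43.8 and 51.5 CPM in young to 171 and 218 CPM in old cells (2.03, SE 0.11, adjusted p = 0.0032). After the knockdown it rose from 1.05 and 2.33 to 5.41 and 10.9 CPM (2.26, SE 0.37, adjusted p = 0.0015), a call lost without HMGB2 KD replicate 2 (1.67, adjusted p = 0.034). TFPI2, an inhibitor of serine proteases, moved in opposite directions, from 107 and 71.6 to 240.2 and 142 CPM in old cells (1.08, SE 0.11, adjusted p = 0.0058) and from 3556 and 2052 to 1052 and 482 CPM after the knockdown (-1.87, SE 0.31, adjusted p = 0.0014), the latter lost without HMGB2 KD replicate 2 (-1.41, adjusted p = 0.017) and with DESeq2 (adjusted p = 0.038). The rise in old cells lost its call with limma on log2(TPM + 1) (0.89, adjusted p = 0.023) and without the isolate covariate (1.10, adjusted p = 0.048).
ATP10A, a phospholipid flippase, rose from 9.46 and 12.8 to 29.1 and 39.7 CPM after the knockdown (1.63, SE 0.18, adjusted p = 0.00011). DLK1, the coding partner of MEG3 on chromosome 14, was at 1.09 and 2.14 CPM in young and 0.271 and 0.221 CPM in old cells and was not called (-2.63, SE 0.57, adjusted p = 0.028). CDKN1C, a cell cycle inhibitor from the imprinted domain next to that of IGF2, was not called in either comparison (0.21 in old cells, -0.76 after the knockdown). PEG3 and NDN were too low in the knockdown libraries to be tested.

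Among 9 genes for IGF receptors, their substrates and IGF2 mRNA binding proteins, none was called after the knockdown (5.2% of all genes were), and 3 were in old cells (33.3%, beside 9.57% of all genes). In old cells IRS2, a docking protein of the receptors, was called higher (3.71 and 5.06 CPM in young, 22.9 and 15.9 in old; 2.12, SE 0.28, adjusted p = 0.0092). The receptor gene IGF1R was called lower (6.72 and 3.76 CPM in young, 1.03 and 0.663 in old; -2.60, SE 0.32, adjusted p = 0.0081), and so was the related ligand IGF1 (3.01 and 3.70 CPM in young, 0.054 and 0.111 in old; -5.24, SE 0.53, adjusted p = 0.0058). In old cells IGF2 was thus higher than in young cells where IGF1 and IGF1R were lower. With limma on log2(TPM + 1) the 3 calls were lost (adjusted p = 0.013 to 0.022), and that of IGF1R was also lost in another setting. Levels of these 3 genes differed between the kinds of table. In WT, IGF1R stood at 79.8 and 101 CPM and IRS2 at 39.2 and 34.3 CPM, above the young tables. IGF1 stood at 0.526 and 0.402 CPM in WT, below them. The part of counting in this was not tested.

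Of 8 genes that maintain imprints, 6 were tested in each comparison. In old cells all 6 had a log2 fold change below 0 (median -0.69, against -0.01 over all genes) and 2 of 6 were called lower, where 3.82% of all genes were. These were the maintenance methyltransferase DNMT1 (-1.14, SE 0.11, adjusted p = 0.0056, or 0.011 with limma on log2(TPM + 1)) and its partner UHRF1 (-2.55, SE 0.23, adjusted p = 0.0050). CTCF, the insulator protein that binds the control region between IGF2 and H19, went from 46.1 and 45.0 to 27.5 and 23.4 CPM. It just missed the threshold (-0.84, SE 0.12, adjusted p = 0.011). It passed in several other settings, among them plain library totals, DESeq2 size factors and no isolate covariate. The proliferation marker MKI67 was lower in the same tables (194 and 228 against 21.8 and 54.1 CPM), and its part in these falls was not tested. None of the 6 was called after the knockdown, beside 5.2% of all genes.

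Among the paralogs of the 10 genes, DIRAS1, which codes for a GTPase of the same family as DIRAS3, rose after the knockdown (WT 20.7 and 20.3 CPM, knockdown 28.3 and 40.3; 0.74, SE 0.17, adjusted p = 0.0099) while DIRAS3 fell. The call stood at the margin and was lost without HMGB2 KD replicate 2 and without either WT library (0.47 to 0.75, adjusted p = 0.018 to 0.079). It was the only 1 of 8 tested paralogs called there (12.5%, beside 5.2% of all genes), and SGCZ was the only 1 of 6 called in old cells (5.66; 16.7%, beside 9.57%), a call lost with limma on log2(TPM + 1) (adjusted p = 0.016). SGCZ had 1 estimated count in each young table and 32 and 86 in the old ones, so the size of its rise is uncertain (3.39 in I79 and 4.89 in I10 with a prior count of 2). Within 250 kb of the 10 genes lay 231 other annotated gene symbols. Of these, Y_RNA, snoU13, SNORD112 and SNORA4 name several genes across the genome, with reads summed over all copies. Of the 231, 33 were tested in old cells, Y_RNA and snoU13 among them. Over all genes 9.57% were called and 5.75% called higher. Of the 33, 5 (15.2%) were called, all higher. They were CPA4, CTSD (1.09), CD81 (0.86), PHACTR2 (0.72) and an unnamed noncoding gene inside IGF2, ENSG00000240801, which had 0 estimated counts in both young tables and 151 and 56.9 in the old ones. The calls of CTSD, CD81 and PHACTR2 were lost with limma on log2(TPM + 1) (adjusted p = 0.037, 0.033 and 0.104), that of PHACTR2 also with plain library totals, and that of ENSG00000240801 with DESeq2 (adjusted p = 0.102) and without the isolate covariate. After the knockdown 29 neighbours were tested and 2 called (6.90%, beside 5.2% of all genes). CPA4 was called higher and LTV1, next to PLAGL1, lower (-0.68, lost without HMGB2 KD replicate 2 or WT replicate 1). No tested neighbour within 250 kb of DIRAS3, NNAT or PEG10 was called in either comparison. Few were tested, in that order 2, 4 and 2 in old cells and 4, 4 and 2 after the knockdown. With 9.57% and 5.2% of all genes called, nothing is read from the absence of calls there.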

How the data were processed

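Bulk RNA-seq of IMR90 was read from 3 kinds of deposited table. The authors deposited the WT and knockdown libraries as raw counts of each gene. The labels name GRCh37, STAR 2.6.0c, featureCounts, DESeq2 and deepTools, while summary rows in these tables (16.9% to 18.0% of totals, left out) have the layout of another counter, so counter and strand use are not given in the sources used here. For each young or old group the authors deposited 1 table of estimated counts and TPM for 205259 transcripts. Sample titles list 2 replicates per group, and pooling is not stated, so each table is an authors' value with no SD or n. For ICM the authors deposited estimated counts per gene and transcript region.

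Estimated counts were summed per gene through GENCODE v44 lifted to GRCh37 (97.7% of IDs, 97.2% to 97.4% of reads) and rounded. Changes were tested with edgeR 4.0.16 in R 4.3.3 (quasi-likelihood, TMM, filterByExpr, Benjamini-Hochberg over all genes), with the call thresholds of the study's methods. SEs are the log2 fold change over the square root of F. Alternatives used DESeq2 1.42.0, limma 3.58.1 and 1 RUVs factor. Intervals are exact (Clopper-Pearson, 95%). CPM between tables used 25299 shared genes and a prior count of 2, for genes with at least 10 reads. On simulated counts with 200 genes changed by 1.5 (log2), the knockdown fit (15050 genes) recovered 72.5% with 3 false calls and the old against young fit (14779 genes) 73% with 10. Replicates differed beyond counting noise (chi-square per degree of freedom 18.0, 28.0 and 1.78 in WT, HMGB2 KD and ICM). The 10 genes and the other lists were chosen with earlier results of these data known. Of the other lists, the text names the called genes with the largest changes (at most 6 per direction), plus DLK1, CDKN1C, PEG3, NDN, CTCF and DNMT1. The markers MKI67, LMNB1, CDKN1A and HMGB2, IGF2-overlapping genes and INS-IGF2 were named as checks. Promoters are from RefSeq.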

Additional observations from a re-analysis of the deposited data

Results flagged for a closer look

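Among the imprinted genes and the other genes named above, 3 moved in opposite directions in the 2 isolates between young and old cells. With 1 table per group, the differences were not tested, and 19.1% of all tested genes had opposite signs. PEG10 differed by 1.08 on the log2 scale (0.30 in I79 and -0.78 in I10). DIRAS1 differed by -0.85 (-0.53 in I79 and 0.32 in I10), on 200 to 334 estimated counts per table. PEG3, a zinc finger gene read from the paternal copy, differed by 4.17 (3.47 in I79 and -0.71 in I10), on 3 and 60 estimated counts in I79 young and old and 10 and 5 in I10 young and old.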

How the results depend on the processing

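In the knockdown comparison, genes called numbered 312 to 999 without each library in turn (174 to 544 higher, 138 to 455 lower), against 797, and imprinted genes called 2 to 4, against 3; the lowest counts came without HMGB2 KD replicate 2 (for imprinted genes also without WT replicate 1), where a lone library is assumed to vary like the others. With the replicate number as a block, 1243 genes were called (685 higher, 558 lower) and 5 imprinted genes; with 2 pairs the numbers are only shared (r = 0.12 between deviations), so no pairing is read from this. The imprinted genes called were also 5 with no filter on low counts, with 1 RUVs factor and at an adjusted p under 0.05 (659 genes higher), IGF2 and MEST being the 2 added. DIRAS3 and PEG10 were called under all 12 alternatives. Plain library totals took the share of higher calls from 54.96% to 44.3%.

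Old and young tables were paired by isolate through the covariate, and without it 1753 genes were called. Limma on log2(TPM + 1) called 735 genes (296 higher), no filter 4265 (2219 higher, 2046 lower), plain library totals 3132 (2112 lower) and an adjusted p under 0.05 called 3860 (2038 higher, 1822 lower), against 1446. Plain totals took the share of higher calls from 60.1% to 32.6%. DIRAS3 is left out of such counts here, since it was chosen for this change. Of the other imprinted genes, PLAGL1 lost its call and GRB10 gained one in some settings. IGF2 and NNAT were called under all alternatives with a test, and within single isolates IGF2 stood between 3.42 and 4.07 and NNAT between -2.61 and -2.32. Of the ICM ratios, 2 imprinted genes were higher with coding and noncoding reads only or with WT as the control, and IGF2 reversed to 3.22 with WT. The causes were not tested. The old values of DIRAS3 and NNAT rest on 4 to 36 estimated counts, and this fit has 1 residual degree of freedom.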
